A study of Homo sapiens with 8 samples.

Results

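The cytosolic ribosomal protein genes were taken from the gene counts of J82 cells, a human bladder cancer line in long use, sorted into a side population (SP) and a non-side population (NSP). They were chosen by name among protein-coding genes: RPL or RPS with a number, RPLP0, RPLP1, RPLP2 and RPSA, leaving out the RPS6K kinases, antisense genes and pseudogenes. The rule gave 90 of the 57820 genes in the table. Of these, 86 encode ribosomal proteins, 53 with large subunit names and 33 with small subunit names. The other 4 are RPS19BP1, a protein that binds RPS19, and the readthrough genes RPL17-C18orf32, RPL36A-HNRNPH2 and RPS10-NUDT3, which join a ribosomal protein gene to its neighbour.

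The SP fraction pumps out a DNA-binding dye and was separated from the NSP fraction by flow sorting of J82 cells grown in serum-containing DMEM, with no drug or genetic change named in the labels. The study treats SP cells as the drug-resistant fraction and NSP cells as the drug-sensitive fraction. There were 4 SP and 4 NSP libraries with replicate numbers 1 to 4 in both groups, all from this 1 cell line. No label says that they came from separate cultures or sorts, so p-values measure the spread between these libraries, which may be technical.

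A cytosolic ribosome has a small subunit, which reads the mRNA, and a large subunit, which joins the amino acids, and each is built from ribosomal RNA and a fixed set of proteins. The ribosomal protein genes lie scattered over the genome (the 90 members on 22 chromosomes, with 12 on chromosome 19), yet their products are needed in near equal numbers. Most of their mRNAs begin with a C followed by a run of pyrimidines, the terminal oligopyrimidine (TOP) tract, through which mTOR signalling sets how strongly they are translated. Translation of an mRNA cannot be seen in RNA counts.

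SP libraries held 1431823 to 1697218 counts each and NSP libraries 1489033 to 2073526. The paper gives a number of raw reads per sample many times larger, so the counts cover a small part of the reads. Why the other reads were not assigned to genes is not given in the sources used here. Counts were scaled to CPM, which gives a gene's share of a library's counts, with TMM-normalized library sizes, and 9309 genes had enough counts for edgeR's quasi-likelihood test. In these bulk libraries, fewer expressing cells and less RNA per cell cannot be told apart. The bladder origin of the line was checked against urothelial and epithelial markers, of which 12 of 16 had a count but only 5 had enough to be tested. KRT8 reached 3298 ± 485 CPM in SP and 4022 ± 737 in NSP cells (SD, n = 4 each). By contrast, EPCAM had 3 counts in all, KRT5 and UPK1A had 1 each, and KRT13, KRT20, TP63 and UPK3A had 0. The leukocyte markers PTPRC and CD3E also had 0 counts, although CD14 had 629. Between the groups, KRT7 (log2 fold change -1.35) and the mesenchymal marker FN1 (-1.25) were called lower in SP cells. With the replicate block, VIM (-0.75) was also called lower and CD14 (1.01) higher in SP cells, with edgeR adjusted p-values of 3.39e-06 and 2.77e-06. The other tested markers were not called with or without the block. Their unblocked log2 fold changes were -0.29 for KRT8, -0.11 for KRT18, -0.24 for KRT19 and 0.22 for UPK2. Those of the mesenchymal CDH2 and ZEB1 were -0.03 and -0.46, and that of the leukocyte marker CD68 was -0.18. Mitochondrially encoded genes took 3.46% to 7.57% of the counts of SP libraries and 1.65% to 4.01% of those of NSP libraries. Without them, 0 members were called and the members' median log2 fold change was -0.03. The part of the marker differences in the results below was not tested.

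The ribosomal protein genes were counted at widely different levels. Per kb of annotated exon, and summed over the 8 libraries, RPL8 had the highest level, with 5999 counts per kb, followed by RPS21 with 2354, RPLP2 with 1908, RPL36 with 1634 and RPS16 with 1616. The median over all 90 members was 217 counts per kb. Of these 5 genes, 4 were also among the top 5 when the length of the canonical transcript was used in place of the union of all exons, where RPL18 took the place of RPL36. The 5 members with the most counts held 33.4% of the 108098 counts of all members. In each library the members together took 0.714% to 0.900% of the counts.

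At the other end, 23 of the 86 ribosomal protein genes had fewer than 100 counts over the 8 libraries. Core ribosomal proteins stood among them: RPL39 had 5 counts, RPS3A and RPS26 had 12 each, RPL9 had 24, RPS10 had 26 and RPL21 had 27. RPL41, which encodes one of the shortest human proteins, had 57. RPL39L had 0 counts, which allows up to 3 counts at this depth. In all, 85 members had at least 1 count and 65 passed the filter on low counts, with totals of 95 to 12951. The 25 untested members reached at most 70 counts, and 15 of them carry large and 10 small subunit names. The level of a member is that of the reads assigned to its gene, and low counts here do not show that a gene is little expressed.

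**Figure D1:**
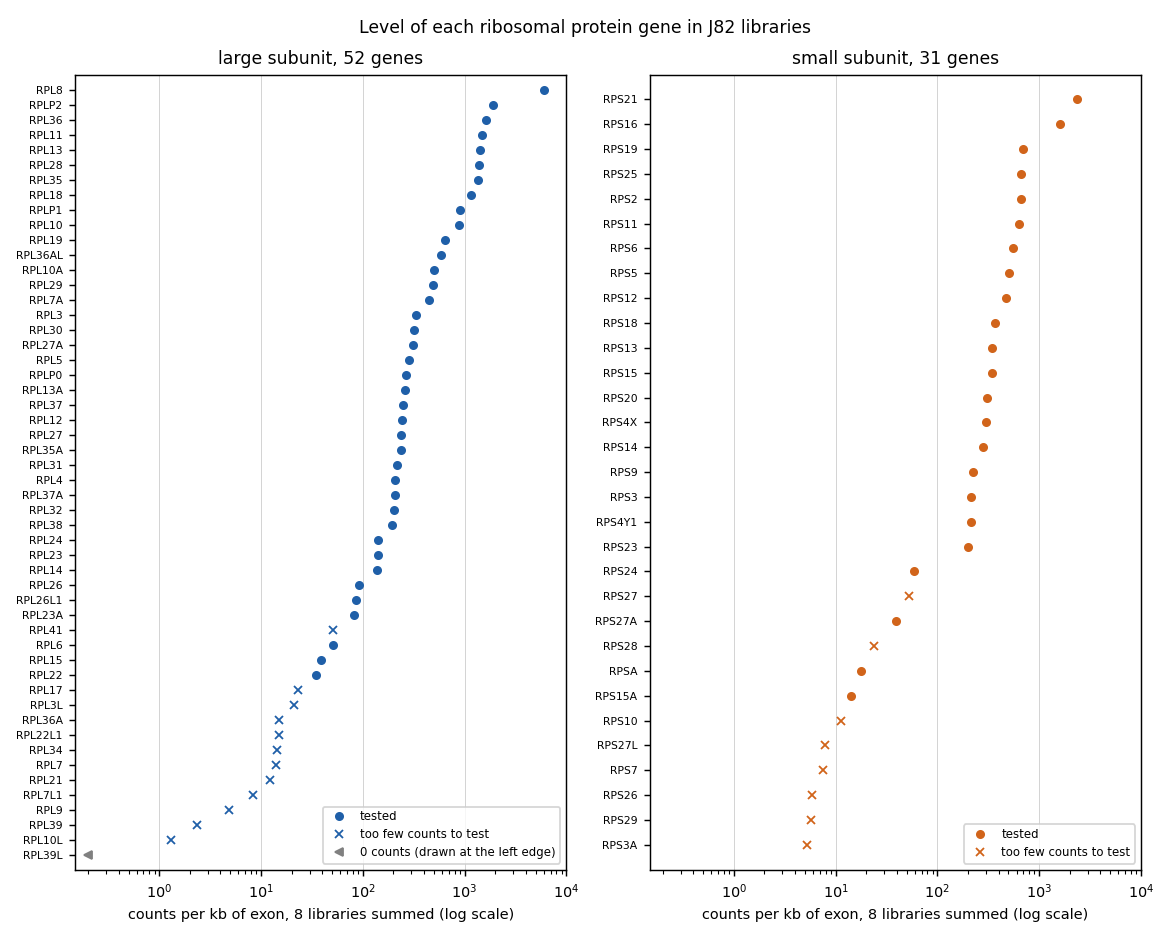
Counts per kb of annotated exon (log scale), 8 libraries summed, by subunit name, for the genes reported here. Circles are genes tested, crosses are genes with too few counts, and an arrowhead marks RPL39L with 0 counts. Levels run up to 5999 counts per kb for RPL8, and RPL10L, with 1 count, is the lowest gene with a count.

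Counts were also assigned to pseudogenes of these genes, copies that lie across the genome and are known to be mostly intronless. The annotation names 1590 pseudogenes of members, 499 of which had a count, and together they held 24941 counts beside the members' 108098. Pseudogenes with many counts were RPL13P12 (4313), RPS2P46 (1904) and RPL4P4 (1501). For 16 members the pseudogenes held more counts than the gene itself: RPS28 had 51 counts and its pseudogenes 604, RPS27 had 54 and 561, and RPL39 had 5 and 341. RPL21, with 133 the member with most pseudogenes, had 27 counts and its pseudogenes 90. How reads that match several genes were counted is not given in the sources used here, so the split between a member and its copies is uncertain, and its part in the low counts was not tested. Of the 43 pseudogenes tested, 1 was called: RPL12P14, named after its values were seen, was lower in SP cells (log2 fold change -1.58, SE 0.33, edgeR adjusted p = 0.0134). Among all tested genes, 2.03% were called lower and 1.63% higher, so 1 call is near the share of all genes.

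The starts of the genes are shown because the TOP tract is the feature that these mRNAs are known to share. Start sites are those of the MANE transcripts, 1 reference transcript a gene, in the GENCODE annotation mapped to GRCh37, available for 87 members. Each window holds 35 bases before the start and 15 from it, 5′ to 3′ on the gene's strand. Capitals mark a run of C followed by at least 4 of C or T, read from a C within 3 bases of the annotated start. Pyrimidines may also lie before the marked run, as in RPL29 and RPS16, and are then not part of it. The first 7 windows hold a marked run and the other 4 do not. They belong to genes with the largest differences or levels, or discussed beside them.
RPS14 (chr5:149829288-149829337, minus strand): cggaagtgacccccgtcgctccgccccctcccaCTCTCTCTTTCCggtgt
RPL6 (chr12:112847395-112847444, minus strand): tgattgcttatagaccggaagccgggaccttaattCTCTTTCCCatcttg
RPS19 (chr19:42364290-42364339, plus strand): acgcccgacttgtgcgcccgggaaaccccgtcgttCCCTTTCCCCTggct
RPSA (chr3:39448176-39448225, plus strand): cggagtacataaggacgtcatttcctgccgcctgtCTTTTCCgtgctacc
RPLP2 (chr11:809932-809981, plus strand): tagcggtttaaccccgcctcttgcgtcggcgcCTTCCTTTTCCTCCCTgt
RPS16 (chr19:39926575-39926624, minus strand): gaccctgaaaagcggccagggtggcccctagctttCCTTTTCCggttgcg
RPL29 (chr3:52029897-52029946, minus strand): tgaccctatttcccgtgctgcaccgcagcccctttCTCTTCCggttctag
RPL15 (chr3:23958588-23958637, plus strand): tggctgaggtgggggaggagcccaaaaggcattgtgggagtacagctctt
RPL23A (chr17:27046968-27047017, plus strand): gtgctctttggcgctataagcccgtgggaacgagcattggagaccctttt
RPL27 (chr17:41150401-41150450, plus strand): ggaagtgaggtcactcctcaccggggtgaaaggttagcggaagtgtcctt
RPS15 (chr19:1438360-1438409, plus strand): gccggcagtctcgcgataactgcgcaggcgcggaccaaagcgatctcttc

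A pyrimidine run at the start was found in 66 of 87 members (75.9%) and in 13.6% of the 18536 protein-coding genes with such a start. When the run had to begin exactly at the annotated start, these shares were 69.0% and 4.75%. Read from that first C, the longest run in a member had 22 bases, in RPL39, and the median among members with a run was 9 bases. On the gene's strand, CTTTCC, which can lie inside the run, was found within 15 bases of the start in 25.3% of members and 1.48% of all genes. Over the whole 300 bases from 250 before to 50 after the start, the shares with CTTTCC were 37.9% and 13.7%.

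Other motifs of these promoters were searched in the same 300 bases. CGGAAG, the core letters of ETS family sites, was found on either strand in 59.8% of members and 25.8% of all genes, and its reverse complement can share letters with a pyrimidine run. AAGATGGC, the letters known from YY1 sites, was found on either strand in 12.6% and 4.14%. TATAAA on the gene's strand, 40 to 15 bases before the start, was found in 5.75% and 3.89%. Among tested genes only, CGGAAG was found in 61.5% of members and 35.4% of protein-coding genes. These shares were 12.3% and 6.52% for AAGATGGC, and 3.08% and 2.04% for TATAAA. A match is a description of the letters, not a site. The tested members with a run at the start (53) had a median log2 fold change of -0.01 between SP and NSP cells and those without (12) of -0.06.

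No ribosomal protein gene was called between SP and NSP cells in the unblocked fit. A gene was called at an adjusted p below 0.05 and a change of more than 1.3-fold, the study's cutoff. Of the 65 tested members 0 were called higher, where 1.63% of all tested genes were, and 0 were called lower, where 2.03% were. DESeq2 and limma voom also called 0 in either direction. With the replicate number as a block, 1 member was called higher, RPS14, and 1 lower, RPS4Y1, as given for each gene below. At an unadjusted p under 0.05 in edgeR, 0 members were higher and 2 were lower, RPS19 and RPS4Y1, where 757 of the 9309 tested genes were higher and 770 lower, and the smallest edgeR adjusted p of a member was 0.208.

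The fold changes of the members were small. Like the levels, they are those of the reads assigned to these genes, which were 0.714% to 0.900% of the counts of a library. Whether reads assigned elsewhere or not at all would give the same was not tested. The members' median log2 fold change, SP over NSP, was -0.02, beside 0.01 for all tested genes, and 30 members had a positive and 35 a negative value. The medians were -0.03 for the 40 tested members with large subunit names and 0.00 for the 25 with small subunit names. The estimates ran from -0.64 to 0.42, with an SD over members of 0.21, against 0.44 over all tested genes. In 60 of the 65 members (92.3%) the estimate lay within 1.3-fold, which was so for 70.6% of all tested genes. The members' median total count of 991 was above the 332 of all tested genes, which bears on that spread: among the 2592 tested genes whose totals lay between 484 and 2081, the middle range of the members, 76.9% lay within 1.3-fold, and among the 33 members in that range 97.0% did.

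The standard error of the log2 fold change was 0.14 for RPL8, with 12951 counts, 0.14 for RPL27A, with 2130, 0.18 for RPL12, with 592, and 0.36 for RPS15A, with 95. The 95% confidence interval lay inside a 2-fold change in both directions for 63 of the 65 tested members (96.9%), and for 72.9% of all tested genes. RPSA and RPS4Y1 were the exceptions, with intervals that reached -1.32 and -1.15. The median distance from the estimate to the end of the interval was 0.39 on the log2 scale. These intervals are not adjusted for the number of genes tested, so a call needed a larger difference. RPS19 and RPS4Y1, whose intervals did not reach 0, were not called without the block. On simulated counts edgeR called 60% of 2-fold changes, so smaller differences were mostly not detectable with these 8 libraries.

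**Figure D2:**
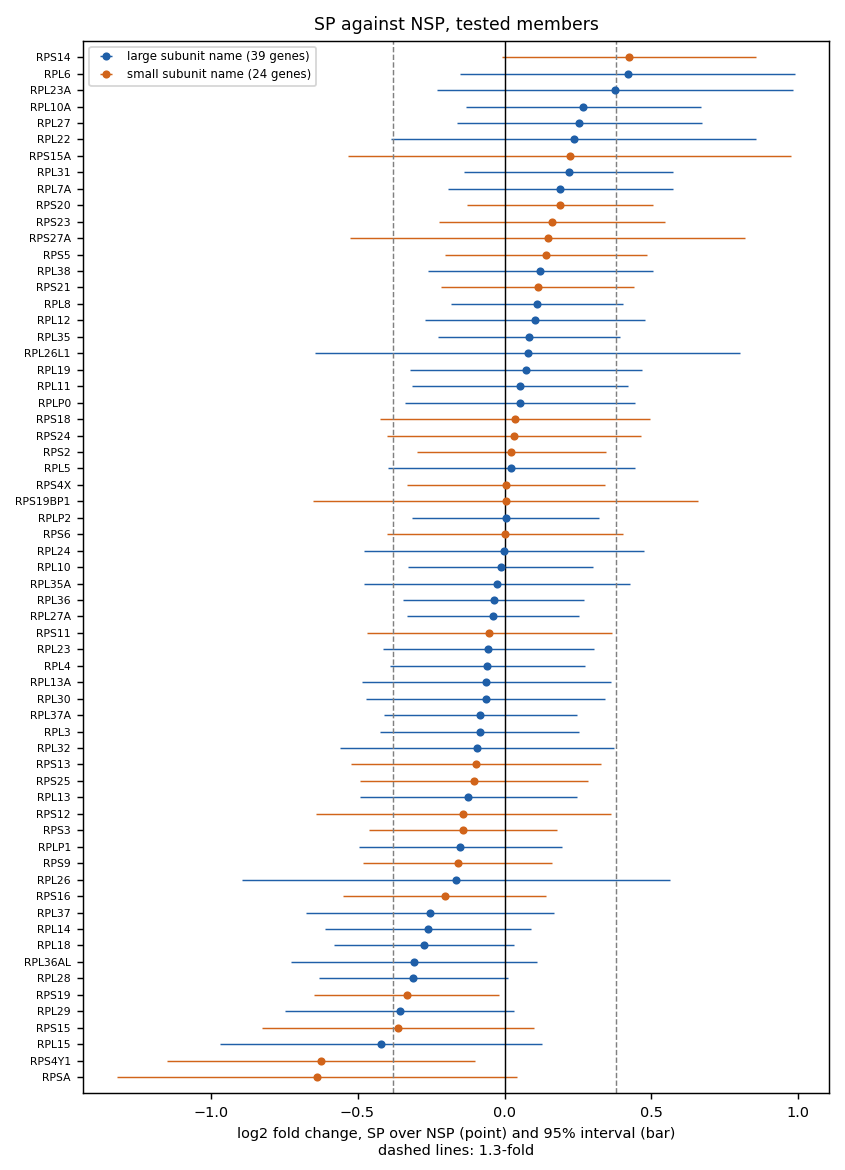
Log2 fold change of SP over NSP (points) with 95% confidence interval (bars) for 63 of the 65 tested members, ordered by value, in blue for large and orange for small subunit names. Dashed lines mark 1.3-fold. Estimates run from -0.64 for RPSA to 0.42 for RPS14, and the intervals of RPS19 and RPS4Y1 do not reach 0.

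The highest estimate was that of RPS14, a small subunit protein whose loss of a gene copy is known from a myelodysplastic syndrome. Its CPM was 148, 81.8, 133 and 150 in SP replicates 1 to 4 and 126, 86.9, 78.4 and 90.6 in NSP replicates 1 to 4. SP was above the same-numbered NSP library in 3 of 4 numbers, and the groups overlapped. The log2 fold change was 0.42 (SE 0.20, edgeR adjusted p = 0.317). With the replicate number as a block it was 0.41 (SE 0.15) with an edgeR adjusted p = 0.0443, and RPS14 was then the 1 member called higher, where 5.89% of all tested genes were called higher in that fit.

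RPL6, RPL23A, RPL10A and RPL27, all proteins of the large subunit, followed. For RPL6, SP libraries held 15.1, 23.5, 16.8 and 25.8 CPM and NSP libraries 20.7, 13.8, 10.8 and 14.5. The log2 fold change was 0.42 (SE 0.27, edgeR adjusted p = 0.48). RPL23A, whose protein lies at the exit of the peptide tunnel, had 17.3, 18.1, 15.7 and 13.2 CPM in SP and 10.6, 7.41, 17.2 and 15.2 in NSP cells. In both genes the SP and NSP ranges overlapped, with totals of only 227 and 182 counts. RPL10A and RPL27 had log2 fold changes of 0.27 (SE 0.19) and 0.25 (SE 0.20).

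The lowest estimate was that of RPSA, a small subunit protein also known as the laminin receptor. Its CPM was 6.48, 5.36, 10.3 and 9.57 in SP replicates 1 to 4 and 16, 11.4, 14.7 and 7.61 in NSP replicates 1 to 4. NSP replicate 4 fell within the SP range, and the total was 136 counts. The log2 fold change was -0.64 (SE 0.32, edgeR adjusted p = 0.339).

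RPS4Y1 and RPS4X encode the small subunit protein eS4 from the Y and X chromosomes. RPS4Y1 had 27.8 ± 8.2 CPM in SP and 42.6 ± 11.4 in NSP cells (SD, n = 4 each), and SP was below the same-numbered NSP library in 4 of 4 numbers although the groups overlapped. Its log2 fold change was -0.62 (SE 0.25, edgeR adjusted p = 0.208). With the replicate block it was -0.62 (SE 0.19) with an edgeR adjusted p = 0.0158, the 1 member called lower in that fit, where 7.00% of all tested genes were called lower. RPS4X had 74.2, 56.3, 70.9 and 69.9 CPM in SP and 70.2, 70.6, 60.0 and 69.1 in NSP cells, and a log2 fold change of 0.01 (SE 0.16).

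RPS19, a small subunit protein whose mutation is known from Diamond-Blackfan anaemia, was the 1 tested member whose groups did not overlap. Its CPM was 168, 130, 168 and 188 in SP replicates 1 to 4 and 218, 193, 197 and 216 in NSP replicates 1 to 4, so that every SP library was below every NSP library. Among all tested genes this was so for 4.97%, and the opposite order held for 4.78%, with 0 members in that order. The log2 fold change was -0.33 (SE 0.15), with an edgeR adjusted p = 0.271, and 0.0773 with the replicate block. The exact two-sided permutation test gave p = 0.0286, the smallest that 4 libraries against 4 allow. Any gene whose groups do not overlap gets this unadjusted value, so it restates the order above and adds nothing to it.

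RPL15, RPS15 and RPL29 completed the 5 lowest. RPL15, of the large subunit, had 15.1, 14.7, 18.4 and 24.3 CPM in SP and 27.7, 17.8, 19.8 and 32.5 in NSP cells, lower in SP in 4 of 4 numbers, with overlapping groups and a log2 fold change of -0.42 (SE 0.26). RPS15, of the small subunit, had 44, 30.2, 64.4 and 53.7 CPM in SP and 76.6, 53.3, 56.8 and 61.5 in NSP cells (log2 fold change -0.36, SE 0.22). RPL29 had 65.8 ± 12.2 CPM in SP and 84.2 ± 15 in NSP libraries (SD over 4 libraries each), which gave a log2 fold change of -0.36 (SE 0.18). None of the 3 genes passed the threshold with or without the block.

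In the reads assigned to them, the genes with the most counts per kb moved little. RPL8 had 1087, 960, 1027 and 1054 CPM in SP and 1042, 1018, 890 and 875 in NSP cells, with a log2 fold change of 0.11 (SE 0.14). RPS21 had 201, 161, 190 and 231 CPM in SP and 213, 166, 165 and 180 in NSP cells (0.11, SE 0.16). RPL36 (-0.04, SE 0.15) and RPS16 (-0.20, SE 0.16) had negative log2 fold changes, and neither passed the threshold. For each of these genes the SP and NSP ranges overlapped.

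The stalk of the large subunit, which recruits the elongation factors, is formed by RPLP0, RPLP1 and RPLP2. RPLP0 had 89.3, 73.7, 86.6 and 81.7 CPM in SP and 103, 73.6, 56.1 and 87.1 in NSP cells, with a log2 fold change of 0.05 (SE 0.18). RPLP1 had a log2 fold change of -0.15 (SE 0.16) and RPLP2 of 0.00 (SE 0.15). RPLP2 ran from 226 to 267 CPM in SP and from 194 to 272 in NSP cells. The SP values thus lay inside the NSP range.

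RPL5 and RPL11, which outside the ribosome bind MDM2 and so act on p53, had log2 fold changes of 0.02 (SE 0.20) and 0.05 (SE 0.17). RPL11 had 383, 261, 270 and 349 CPM in SP and 307, 258, 267 and 385 in NSP cells, and both groups held high and low libraries. RPL10, which joins the large subunit late in its assembly, had 313 ± 31.0 CPM in SP and 315 ± 44.4 in NSP cells (SD, n = 4 each).

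Of the small subunit, RPS6, the substrate of the S6 kinases below mTOR, had 110, 87.1, 117 and 146 CPM in SP and 135, 86.9, 104 and 135 in NSP cells, with a log2 fold change of 0.00 (SE 0.19). RPS3, which lines the entry of the mRNA channel, had 92.5 ± 7.5 CPM in SP and 102 ± 11.5 in NSP cells (SD, n = 4 each; log2 fold change -0.14, SE 0.15). RPS27A, made as a fusion with ubiquitin, had only 116 counts and a log2 fold change of 0.15 (SE 0.32).

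Although the groups did not separate, the members stood high or low together from library to library. Each tested member's log2(CPM + 1) was set against its own mean over the 8 libraries. In SP replicate 4, 56 of 65 members (86.2%) were above their mean, and in NSP replicates 1 and 4, 53 (81.5%) and 48 (73.8%) were. In SP replicate 2 and NSP replicate 3, 53 (81.5%) and 49 (75.4%) were below. The other 3 libraries lay between, with 25 of 65 above in SP replicate 1, 32 in SP replicate 3 and 30 in NSP replicate 2. Among all tested genes the share above the mean was 50.3% to 52.8% in every library. The scaling was set on these genes, so it holds their shares and medians near the middle in every library. Among other protein-coding genes without an exon across the other strand the share was 41.8% to 63.3%. High and low libraries thus occurred in both groups.

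The median deviation of the members ran from -0.16 in SP replicate 2 and NSP replicate 3 to 0.17 in SP replicate 4 and 0.19 in NSP replicate 1, while that of all tested genes was 0.00 to 0.02. Both subunits followed this order at its ends: in SP replicate 4, 90.0% of large and 80% of small subunit members were above their mean, and in SP replicate 2, 17.5% and 20%. The 44 tested members without an exon across a gene of the other strand gave 86.4% in SP replicate 4 and 9.09% in SP replicate 2. Mitochondrial ribosomal proteins were above their mean in 72.2% of 54 genes in SP replicate 4, and in 40.7% to 53.7% in the other 7 libraries. Other TOP mRNAs (20 genes) were above it in 70.0% in NSP replicate 1 and in 10.0% in NSP replicate 3, but in 50.0% in SP replicate 4. Translation factors (41 genes) gave 65.9%, 24.4% and 48.8% in these libraries, and 53.7% in SP replicate 2. These shares describe 8 libraries, and members of a library share its preparation and depth.

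Within same-numbered pairs the direction depended on the number. SP was above NSP for 24.6% of the 65 members in pair 1, 36.9% in pair 2, 61.5% in pair 3 and 66.2% in pair 4. All tested genes gave 50.3% to 50.7%, which the scaling also holds near the middle. In pair 3 other sets gave similar or higher shares, with 64.9% of other protein-coding genes without an exon across the other strand, 68.3% of translation factors and 80% of other TOP mRNAs. In pair 4 these shares were 53.3%, 51.2% and 60%, and mitochondrial ribosomal proteins gave 66.7%. One member, RPS15A, was higher in SP in 4 of 4 pairs and 8 were lower in 4 of 4, which is 1.54% and 12.3%, beside 14.9% and 15.1% of all tested genes.

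**Figure D3:**
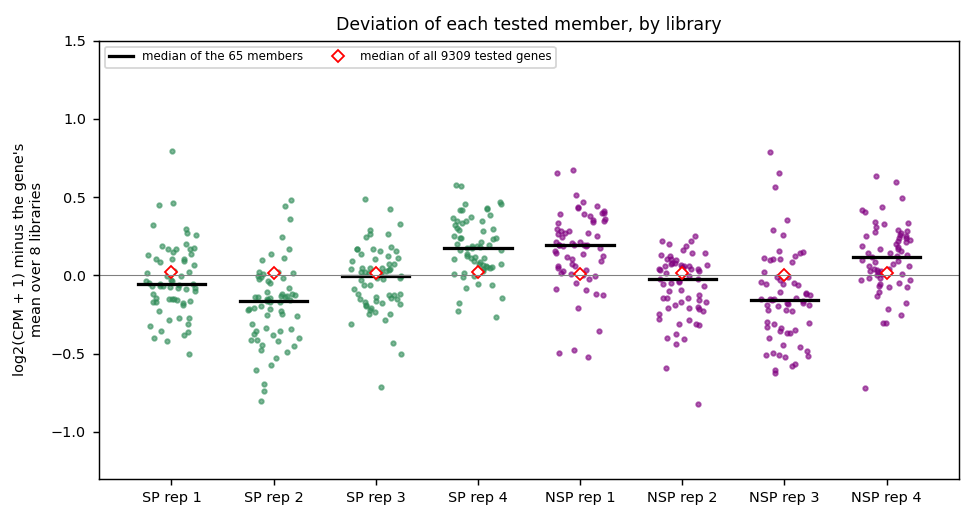
Deviation of log2(CPM + 1) from the gene's mean over 8 libraries for each of the 65 tested members (points), by library, with their median (black line) and the median of all 9309 tested genes (red diamond). The members' medians run from -0.16 to 0.19 and are high in SP replicate 4, NSP replicate 1 and NSP replicate 4.

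The summed level gave the same picture. The CPM of all 90 members added up to 8224, 7234, 7985 and 9215 in SP replicates 1 to 4 and to 9460, 8132, 7515 and 8706 in NSP replicates 1 to 4. The means were 8164 ± 818 in SP and 8453 ± 828 in NSP cells (SD, n = 4 each), a log2 ratio of -0.05, and SP was the higher in 2 of 4 same-numbered pairs. The large subunit members summed to 5897 ± 568 in SP and 6117 ± 543 in NSP cells and the small subunit members to 2268 ± 261 and 2336 ± 288. The pseudogenes of members summed to 1884, 1625, 1830 and 2082 in SP and to 2270, 1937, 1672 and 1993 in NSP cells, so they were lowest and highest within each group in the same libraries as the genes themselves.

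Several members share their locus with a gene on the other strand, and the strand setting of the counting is not given in the sources used here. Exons of 27 members lay across exons of 31 genes of the other strand, by 11 to 1882 bases, and in 10 of the 30 pairs whose member had a count the other gene had more counts per kb. RPL30-AS1, a lncRNA across 871 bases of RPL30 exon, had 73928 counts and RPL30 1261, which is 118 times the counts per kb. ENSG00000264577, across 155 bases of RPL23A, had 15484 counts and RPL23A 182, which is 211 times the counts per kb. Without the strand, reads of both genes of such a pair cannot be told apart where their exons overlap.

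Of other genes across members, ATG10, an autophagy gene, had 7714 counts against 810 of RPS23, and ENSG00000225339 had 6244 against 0 of RPS10-NUDT3. LONP1, a mitochondrial protease, had 4045 counts against 3711 of RPL36. SH3D19 had 713 counts against 12 of RPS3A, and DENND2B 657 against 2130 of RPL27A. The log2 fold changes of RPL30-AS1 (-0.25, SE 0.17), ENSG00000264577 (-0.11, SE 0.15), ATG10 (-0.03, SE 0.16) and LONP1 (0.01, SE 0.18) did not pass the threshold. Only 1 gene of the 31, ENSG00000273226 across RPS6, with 62 counts, had at least 50% of its exon length inside a member's exons.

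The tested members with an exon across the other strand (21) had a median log2 fold change of 0.00 and those without (44) of -0.05. On the same strand, exons of 33 members overlapped those of another gene, in 55 pairs. Overlaps between members, such as those with the readthrough genes, were not counted, and their part in the low counts was not tested.

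**Figure D4:**
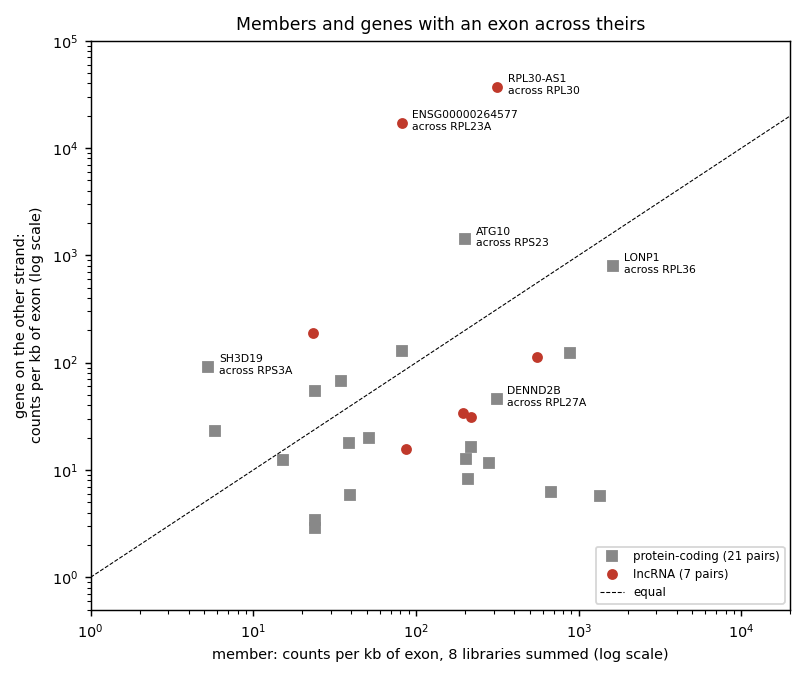
Counts per kb of exon, 8 libraries summed, of a gene on the other strand (vertical, log scale) against the member whose exon it lies across (horizontal, log scale), for 21 protein-coding (squares) and 7 lncRNA (circles) pairs in which both genes had a count. Another 2 pairs, 1 of them with a pseudogene, are not drawn. The dashed line marks equal levels, and RPL30-AS1 lies 118 times above RPL30.

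Some ribosomal protein genes have a paralog, and reads of a pair may be split between its genes where their sequences match. RPL26 with 227 counts and RPL26L1 with 101 were the 1 pair in which both genes were tested. The log2 ratio of RPL26L1 to RPL26 was -1.09 ± 0.65 in SP and -1.29 ± 1.07 in NSP cells (SD, n = 4 each; exact two-sided permutation p = 0.771, 1 pair tested). In the other pairs RPL3 had 1558 counts and RPL3L 58, RPL10 had 4057 and RPL10L 1, RPL22 had 162 and RPL22L1 31, and RPL39 had 5 and RPL39L 0. RPL7 had 38 and RPL7L1 65, RPS27 had 54 and RPS27L 70, and RPL36A had 60 while RPL36AL had 394.

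Other ribosomal proteins and genes of translation also gave few differences. Beyond the members, FAU, made as a fusion with a ubiquitin-like protein, and RACK1 are ribosomal proteins with names outside the rule. FAU had 102, 99.9, 112 and 146 CPM in SP and 95.8, 86.9, 96.3 and 93.3 in NSP cells, so that every SP library was above every NSP library. This order held for 4.78% of all tested genes, among them MTOR and EIF1AX of the lists below. NAP1L1 of these lists was among the 4.97% in the opposite order. The log2 fold change of FAU was 0.30 (SE 0.16, edgeR adjusted p = 0.369). RACK1 had a log2 fold change of -0.08 (SE 0.16).

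In the lists of other genes of the pathway, 0 genes passed edgeR's test in either direction. These were 41 tested translation factors, 20 other TOP mRNAs, 39 ribosome biogenesis factors, 5 of RNA polymerase I, 12 of growth signalling, 5 snoRNA host genes and 54 mitochondrial ribosomal proteins, with median log2 fold changes of 0.00, 0.05, 0.02, -0.09, 0.05, 0.01 and 0.07. Some genes stand on more than 1 list. At an unadjusted p under 0.05, 4 genes of these lists were higher (1 of growth signalling and 3 mitochondrial ribosomal proteins) and 3 entries were lower (1 each of other TOP mRNAs, ribosome biogenesis and mitochondrial ribosomal proteins), beside the 757 and 770 of all 9309 tested genes.

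With the replicate block, MTOR, the kinase that acts on TOP mRNAs, was called higher, with 81.5 ± 10.9 CPM in SP and 57.7 ± 3.9 in NSP libraries (SD over 4 libraries each). The log2 fold change was 0.50 in both fits, with an edgeR adjusted p = 0.102 without and 0.0184 with the block. NAP1L1, a histone chaperone with a TOP mRNA, had 45.1 ± 7.6 CPM in SP and 64.4 ± 7.0 in NSP cells, and a log2 fold change of -0.52 (SE 0.18, edgeR adjusted p = 0.131, with the block 0.0223). EEF1A2, an elongation factor, had 10.6 ± 6.4 CPM in SP and 21.0 ± 16.7 in NSP cells, and a log2 fold change of -1.04 (SE 0.53, edgeR adjusted p = 0.355), which was -0.88 with the block (adjusted p = 0.0316). It was lower in SP in only 2 of 4 same-numbered pairs, and leaving out each library in turn without the block moved its log2 fold change between -1.50 and -0.53. With the block, the ribosome biogenesis factor BRIX1 (0.44) and the mitochondrial ribosomal protein MRPL49 (0.52) were also called higher and MRPS25 (-0.46) lower, with edgeR adjusted p-values of 0.0281, 0.0186 and 0.0246. These 3 were named after their values were seen. The block called higher 8.33% of growth signalling genes, 2.56% of ribosome biogenesis factors and 1.85% of mitochondrial ribosomal proteins, beside 5.89% of all tested genes. It called lower 2.44% of translation factors, 5% of other TOP mRNAs and 1.85% of mitochondrial ribosomal proteins, beside 7.00% of all tested genes.

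The extremes of the lists that no fit called were EIF1AX, an initiation factor, with a log2 fold change of 0.59 (SE 0.29), NOP10 (-0.49, SE 0.30) and WDR43 (0.63, SE 0.36) of ribosome biogenesis, UBTF (-0.19, SE 0.17) and POLR1A (0.29, SE 0.25) of RNA polymerase I, the translation repressor EIF4EBP1 (-0.27, SE 0.22) and the snoRNA hosts GAS5 (0.37, SE 0.27) and ZFAS1 (-0.10, SE 0.31). Among the mitochondrial ribosomal proteins, MRPS23 had -0.76 (SE 0.34) and MRPS27 had 0.73 (SE 0.29).

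**Figure D5:**
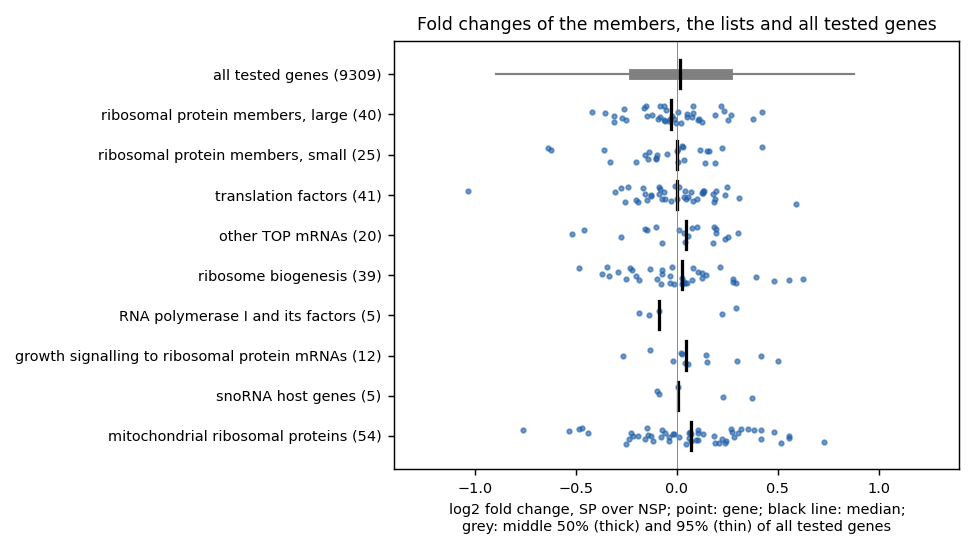
Log2 fold change of SP over NSP for the tested members by subunit name and for 7 lists of related genes (points, with the median as a black line), beside all 9309 tested genes (grey: middle 50% thick, middle 95% thin). The medians of the lists run from -0.09 to 0.07, and EEF1A2 at -1.04 is the point farthest from 0.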

How the data were processed

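mRNA libraries (KAPA mRNA HyperPrep, single-end 50-bp reads) of sorted J82 cells were aligned by the authors to hg19 with STAR and counted on gencode version 19 genes with featureCounts. The deposited values are integer read counts, not scaled by the authors. Strand setting and treatment of reads that match several genes are not given in the sources used here. Libraries were assigned to groups by their titles.

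Symbols, exons and start sites came from the GENCODE v44 annotation mapped to GRCh37 by Ensembl identifier, which matched 55538 of 57820 genes. The genes without a match held 4.06% of the counts. Exons of 54.2% of tested genes overlapped those of an opposite-strand gene.

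SP was compared with NSP by the quasi-likelihood F-test of edgeR 4.0.16 (R 4.3.3), after TMM scaling and filterByExpr (min.count 10, min.total.count 15), with no covariate and across all genes, with Benjamini-Hochberg adjustment over the 9309 tested genes. The test was run on simulated counts first. The standard error is the log2 fold change divided by the square root of F. Exact permutation tests and per-library deviations used log2(CPM + 1). A confidence level of 95% was used throughout.

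Same-numbered SP and NSP libraries deviated together from their group means (r = 0.380, 0.203, 0.322 and 0.320 for numbers 1 to 4). Libraries of different numbers gave r = -0.276 to 0.124, highest for SP replicate 2 with NSP replicate 3, which is also over 0.1. The pairing comes from these values, and the replicate block was an alternative. Replicates of a group differed by more than counting noise (chi-square per degree of freedom 5.61 to 13.5), so each was kept. The other alternatives were DESeq2 1.42.0, limma 3.58.1 voom with sample weights, other scalings and filters, glmTreat, and leaving out libraries, mitochondrial genes or genes across the other strand.

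The members, the lists of related genes and the tests were chosen with earlier results of these data known. Named genes are those called, the 5 highest and 5 lowest log2 fold changes, the 5 highest counts per kb, 12 members chosen for their known roles, the paralog pairs, the 8 genes across members with the most counts and those called, and the called and extreme genes of each list. Some genes of these sets are not reported here.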

Additional observations from a re-analysis of the deposited data

Results flagged for a closer look

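RPS4X in NSP cells had 1 library far from the others. With 70.2, 70.6, 60.0 and 69.1 CPM in NSP replicates 1 to 4, the gap between replicate 3 and the next library took 0.861 of the range of the group, above Dixon's 95% critical value for 4 samples. NSP replicate 3 was also among the libraries in which most members stood below their mean. Of the 70 groups examined this was the 1 flagged, where chance gives about 3.5.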

How the results depend on the processing

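Members called higher and lower stayed at 0 in each direction under every alternative except the replicate block, where 1 was called higher (RPS14) and 1 lower (RPS4Y1). The pairing by replicate number changed no other call of a member. Leaving out each library in turn gave 0 calls in each direction. The median log2 fold change of the tested members was -0.11 to -0.01 under the other alternatives, lowest without genes across an exon of the other strand (-0.11), and -0.13 to 0.01 without each library. It was 0.01 without NSP replicate 1, -0.08 without NSP replicate 3 and -0.13 without SP replicate 4. The log2 ratio of the summed CPM was -0.11 to 0.01 without each library, and turned positive without SP replicate 2 or NSP replicate 1. Without the 5 members with the most counts, an alternative chosen after seeing the data, it was -0.02. The 25 members with at most 70 counts were outside the edgeR test with its filter. With no filter on low counts, 85 members were tested and 0 called.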
